A study of Mus musculus with 13 samples.

Results

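The genes described here are the nuclear genes of the respiratory chain and the ATP synthase in CD8+ T cells. They were chosen by symbol: names that start with Nduf, Uqcr, Atp5 or Cox4 to Cox8, and Sdha, Sdhb, Sdhc, Sdhd, Cyc1 and Cycs. Of the 18194 genes measured by a probe set assigned to 1 gene, 92 met this rule, and each is represented by its brightest probe set. They comprise 34 subunits and 8 assembly factors of complex I, 4 subunits of complex II, 9 of complex III, cytochrome c (Cycs), 10 ubiquitous subunits of complex IV, 17 subunits of the ATP synthase, and 9 tissue-restricted isoforms or relatives of complex IV subunits.

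RNA came from CD8+ T cells of P14 mice, which carry a transgenic T cell receptor, on the C57Bl/6 background, and was hybridised to 13 arrays. Wild-type cells were sampled naive (2 arrays) and after 3 days of culture (4 arrays), and BATF-/- cells, which lack the transcription factor BATF, were sampled naive (3 arrays) and at day 3 (4 arrays). Day 3 cells had been stimulated on plate-bound anti-CD3 and anti-CD28 antibodies with recombinant human IL-2 at 100 U/ml. All cells were purified by magnetic depletion of other cell types, and the transgenic receptor and the strain were shared by all groups. The labels do not say which arrays came from separate mice or cultures, so p-values measure only the spread between these arrays, and the small number of arrays limits the precision.

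The respiratory chain passes electrons from NADH (complex I) and succinate (complex II) through ubiquinone, complex III and cytochrome c to oxygen at complex IV, and complexes I, III and IV pump protons across the inner mitochondrial membrane. The ATP synthase lets these protons flow back through a ring of c subunits and uses the rotation to make ATP in its F1 head. Most subunits are encoded in the nucleus and imported, while a small set of membrane subunits is encoded by mitochondrial DNA. T cells enlarge their mitochondria when they are activated, and much of their ATP then comes from glycolysis.

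Series-wide values were as follows. Array medians of the deposited intensity lay between 31.5 and 32.5, and arrays of the same group correlated at 0.988 to 0.998 over all genes. Batf log2 intensity was 8.63 to 9.36 in the 6 wild-type arrays and 5.56 to 6.77 in the 7 BATF-/- arrays. Within wild type it was 9.19 and 9.36 in the naive arrays and 8.63 to 9.19 at day 3, so it was not higher at day 3. All 7 measured CD8 T cell markers were above the background limit in every array (a log2 intensity of 4.72, below which the dimmest 40% of probe sets lie). Markers of other cells were brighter in the naive arrays: the mean log2 intensity of 5 NK cell markers was 6.51 to 8.22 in naive and 4.48 to 4.77 in day 3 arrays, that of 6 monocyte and macrophage markers 7.41 to 8.90 and 5.07 to 5.64, and that of 7 B cell markers 6.00 to 7.12 and 4.77 to 5.001. The 6 neutrophil markers averaged 8.79 in BATF-/- naive replicate 1, 4.64 to 5.84 in the other naive arrays and 3.93 to 4.01 at day 3. The part of these cells in the naive to day 3 differences below was not tested, and in bulk RNA fewer cells of a type and less RNA per cell cannot be told apart.

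Promoter sequences of 5 members are given first, for the genes of the c ring and for the members with the largest fall and the largest rise. No result below rests on them. They come from the RefSeq promoter table of mouse assembly GRCm38.p6, read 5′ to 3′ on the gene's own strand, where 75 of the 92 members had an entry. The c ring of the ATP synthase is encoded by Atp5g1, Atp5g2 and Atp5g3, which make the same mature protein with different import sequences, and the 100 bases before their start sites (chr11:96075632-96075731, chr15:102671048-102671147 and chr2:73911327-73911426, all on the minus strand) are shown to compare these genes. Ndufaf4 (chr4:24897933-24898032, plus strand, positions -150 to -51 relative to the start site) had the largest fall of all members. Cox7a1 (chr7:30184071-30184170, plus strand, the 100 bases before the start site) had the largest rise. Capitals mark a match to any of 6 searched motifs, on either strand.
Atp5g1: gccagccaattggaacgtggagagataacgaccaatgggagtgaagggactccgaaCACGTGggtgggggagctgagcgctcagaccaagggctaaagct
Atp5g2: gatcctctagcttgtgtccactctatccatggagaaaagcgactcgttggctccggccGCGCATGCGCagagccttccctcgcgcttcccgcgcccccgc
Atp5g3: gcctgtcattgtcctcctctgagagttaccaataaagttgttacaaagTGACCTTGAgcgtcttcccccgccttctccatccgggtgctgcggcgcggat
Ndufaf4: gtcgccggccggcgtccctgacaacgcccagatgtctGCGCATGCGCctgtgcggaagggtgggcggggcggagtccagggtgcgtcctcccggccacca
Cox7a1: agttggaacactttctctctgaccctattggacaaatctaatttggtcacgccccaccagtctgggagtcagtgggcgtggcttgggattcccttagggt
The capitals are an E-box in Atp5g1, the NRF1 core in Atp5g2 and Ndufaf4, and the ERR motif, read on the other strand, in Atp5g3. The Cox7a1 window holds none of the 6 motifs.

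The motifs were counted in the whole table windows, from 250 bases before to 50 after the start site, on both strands, and none of the motifs contains another. The NRF1 core was found in 6 of the 75 members (8%: Atp5g2, Atp5k, Cox6a1, Ndufaf4, Ndufaf5 and Uqcrc1), in 1.58% of the 14453 measured genes with a promoter entry and in 0.977% of all 27025 promoters of the table. The YY1 motif AAGATGGCG was found in 6 members (8%), against 2.33% of measured genes, and the ERR motif TCAAGGTCA in 2 (2.67%: Atp5g3 and Sdhd), against 0.353%. The ETS core CCGGAAGT was in 5 members (6.67%), against 6.14%, and the E-box CACGTG in 6 (8%), against 9.02%. The AP-1 motif TGANTCA was in 7 members (9.33%: Atp5c1, Atp5g1, Cox7c, Ndufa13, Ndufa5, Ndufa9 and Uqcrh), against 6.33%. These matches describe the sequences. The 2 members with an NRF1 core shown above moved in opposite directions at day 3, Ndufaf4 falling and Atp5g2 rising.

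From the naive state to day 3, more members rose than fell, most of them by small amounts, and a few moved far. In wild-type cells 38 of the 92 members rose (41.3%, against 22.4% of all genes tested) and 11 fell (12.0%, against 23% of all genes), each at an adjusted p below 0.05 in a limma fit with Benjamini-Hochberg adjustment. In BATF-/- cells 48 members rose (52.2%, against 23.8% of all genes) and 10 fell (10.9%, against 23.2%). By their mean 90 of the members were above the background limit, so genes above it are the closer comparison. Of those 11783 genes, 29% rose and 32.3% fell in wild type, and 30.5% rose and 32% fell in BATF-/-. The members that rose in wild type did so by 0.31 log2 units at the median. The median over all 92 members was 0.13 in wild type and 0.19 in BATF-/-, beside 0.05 in each genotype over all genes. Over genes above the background limit the median was 0.01 in wild type and 0.02 in BATF-/-. At least a 2-fold difference was seen in 3 members, Cox7a1, Ndufv3 and Ndufaf4, in both genotypes. Without wild-type naive replicate 2, 7 members fell in wild type in place of 11.

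**Figure D1:**
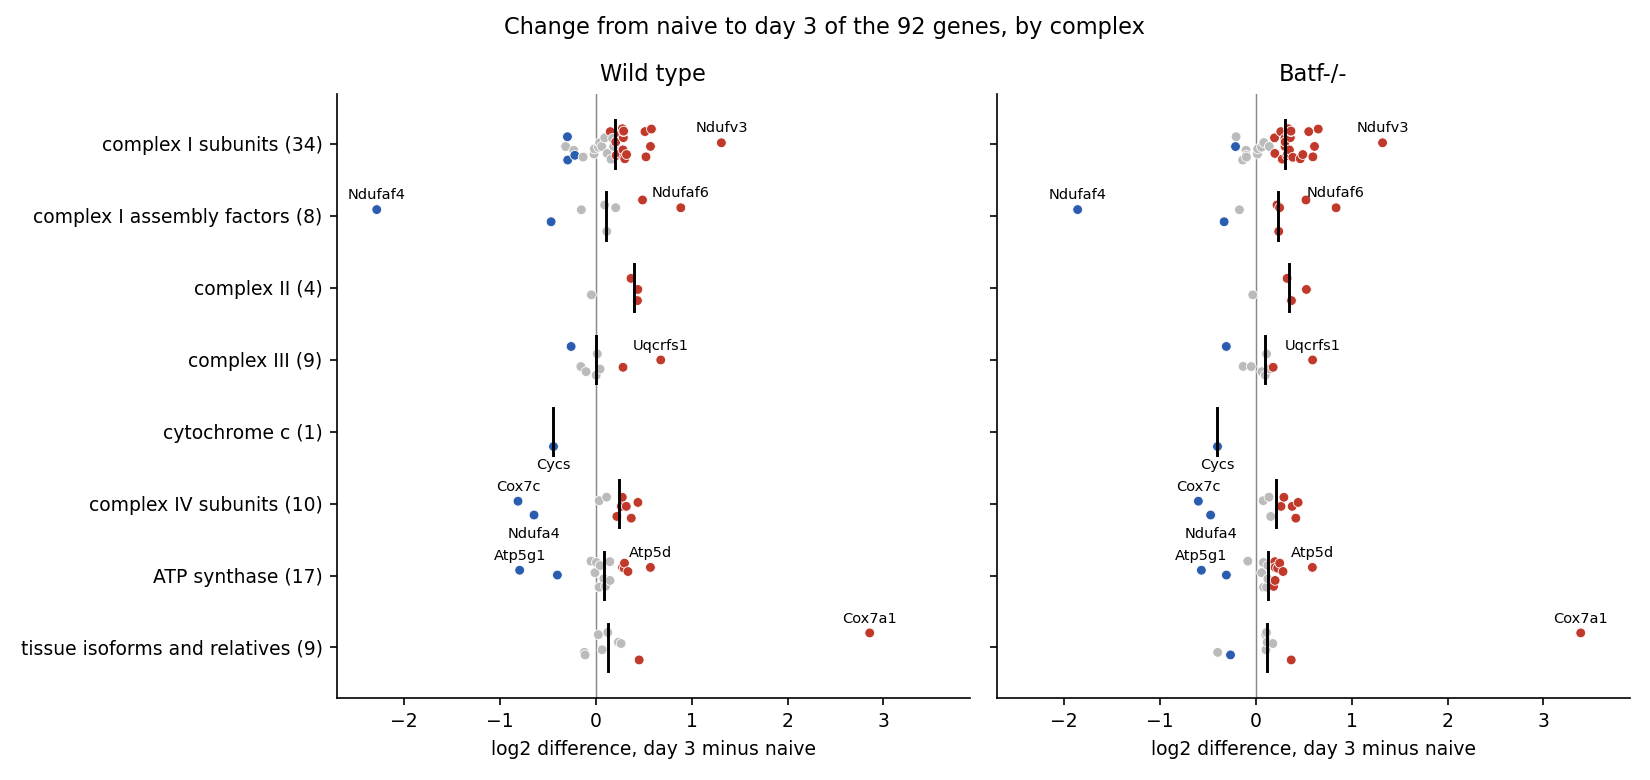
Difference in log2 intensity between day 3 and naive arrays for each of the 92 genes (points), by complex, in wild-type cells (left) and BATF-/- cells (right). Red points passed the test as higher, blue points as lower, grey points did not pass, and black bars are the medians of each complex. Complex I subunits and complex II lie mostly to the right of 0, while Ndufaf4 and Cox7a1 lie far outside the rest.

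Complex I, the NADH dehydrogenase, has the most members here. Of its 34 subunits 18 rose and 3 fell in wild type, with a median difference of 0.20 log2 units, and 23 rose and 1 fell in BATF-/-, with a median of 0.30. Among the 6 core subunits, which carry the electron path, 4 rose and none fell in either genotype (Ndufv1, Ndufv2, Ndufs3 and Ndufs8, by 0.26 to 0.29 in wild type), while Ndufs1 (0.06 ± 0.08 SE) and Ndufs7 (-0.02 ± 0.08) did not pass. Of the 28 accessory subunits 14 rose and 3 fell in wild type.

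Ndufv3, an accessory subunit next to the NADH-binding flavoprotein, changed most in this complex. Wild-type cells gave a log2 intensity of 11.25 and 11.10 when naive and of 12.51, 12.48, 12.52 and 12.42 at day 3. BATF-/- cells gave 11.11, 11.27 and 11.23 naive and 12.51, 12.48, 12.54 and 12.57 at day 3. Every day 3 array was above every naive array. The rise was 1.31 ± 0.07 log2 units (SE, 2.48-fold, adjusted p = 8.25e-09) in wild type and 1.32 ± 0.06 in BATF-/- (adjusted p = 2e-09), and only 1 probe set measured the gene. Ndufa9, an accessory subunit near the ubiquinone site, went from 10.85 ± 0.02 (SD, n = 2) to 11.43 ± 0.10 (n = 4) in wild type, a rise of 0.58 ± 0.07 (adjusted p = 1.71e-05). Ndufb8, in the membrane arm, went from 10.75 ± 0.03 to 11.32 ± 0.05, a rise of 0.57 ± 0.10 (adjusted p = 0.00034), but a dimmer probe set of the same gene fell by 0.68 in the fit of all 34958 probe sets assigned to 1 gene.

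Against the rest of the complex, the accessory subunits Ndufa1, Ndufa3 and Ndufa5 fell in wild type. Ndufa1 went from 12.64 ± 0.01 to 12.35 ± 0.05 (a fall of 0.29 ± 0.06, adjusted p = 0.000867) and also fell in BATF-/-, by 0.21 ± 0.05 (adjusted p = 0.00352). Ndufa3 fell by 0.22 ± 0.08 in wild type (adjusted p = 0.033) and differed by -0.10 ± 0.07 in BATF-/-, where it did not pass. Ndufa5 fell by 0.30 ± 0.11 in wild type (adjusted p = 0.036) and differed by -0.10 ± 0.09 in BATF-/-. The smallest differences were those of Ndufa10 (11.54 naive and 11.52 at day 3 in wild type) and Ndufs7 (10.99 and 10.97). Ndufb4 stayed below the background limit in all groups, so its differences are not read.

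The complex I assembly factors, which help to build the complex and are not part of it, moved in both directions. In wild type 2 of 8 rose and 2 fell, and in BATF-/- 5 rose and 2 fell. Ndufaf4, which takes part in an early step of assembly, read 9.91 and 9.72 in wild-type naive arrays, 9.72, 9.61 and 9.59 in BATF-/- naive arrays, 7.50, 7.56, 7.46 and 7.61 in wild-type day 3 arrays, and 7.79, 7.77, 7.77 and 7.78 in BATF-/- day 3 arrays. All day 3 arrays were far below all naive arrays, and the 4 wild-type day 3 arrays were below the 4 BATF-/- ones. Ndufaf4 fell by 2.29 ± 0.07 log2 units in wild type (4.88-fold, adjusted p = 6.78e-11) and fell by 1.86 ± 0.06 in BATF-/- (3.63-fold, adjusted p = 9.13e-11). A second probe set of Ndufaf4 fell by 2.42 in wild type and fell by 2.22 in BATF-/- in the fit of all probe sets. Its BATF-/- minus wild-type difference at day 3 was -0.04 and did not pass (adjusted p = 0.885).

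Ndufaf6, another assembly factor, did the opposite. It read 7.76 and 7.92 in wild-type naive arrays and 8.72, 8.66, 8.75 and 8.78 at day 3, a rise of 0.89 ± 0.08 (adjusted p = 1.01e-06). In BATF-/- it read 8.08, 7.85 and 7.92 naive and 8.88, 8.74, 8.74 and 8.79 at day 3, a rise of 0.84 ± 0.07 (adjusted p = 5.13e-07). Ndufaf3 rose from 8.57 ± 0.04 to 9.05 ± 0.10 in wild type (0.49 ± 0.09, adjusted p = 0.000413) and Ndufaf8 fell from 9.91 ± 0.04 to 9.44 ± 0.10 (by 0.47 ± 0.08, adjusted p = 0.000169). Ndufaf1 (0.09 ± 0.07) and Ndufaf5 (0.11 ± 0.06) did not pass in wild type and rose in BATF-/-, by 0.22 ± 0.06 and 0.25 ± 0.05 (adjusted p = 0.0105 and 0.00142).

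In complex II, succinate dehydrogenase, 3 of the 4 subunits rose in each genotype. Sdhb, the iron-sulphur subunit, read 11.08 and 11.02 in wild-type naive arrays and 11.46, 11.48, 11.47 and 11.53 at day 3, and 11.11, 10.96 and 11.10 against 11.63, 11.58, 11.58 and 11.54 in BATF-/-. Its naive and day 3 arrays did not overlap. The rise was 0.44 ± 0.06 in wild type (adjusted p = 7.05e-05) and 0.53 ± 0.06 in BATF-/- (adjusted p = 4.03e-06). The membrane anchors Sdhc and Sdhd rose by 0.37 ± 0.07 and 0.43 ± 0.09 in wild type (adjusted p = 0.000395 and 0.00118). Sdha, the flavoprotein, differed by -0.05 ± 0.08 with its brightest probe set, while its second probe set, in the fit of all probe sets, rose by 0.26 in wild type and 0.33 in BATF-/- (adjusted p = 0.00748 and 0.000424).

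Complex III, which passes electrons from ubiquinone to cytochrome c, stayed near its naive level at the median (0.00 in wild type and 0.10 in BATF-/-), with 2 of 9 subunits up and 1 down in each genotype. Its catalytic subunits parted. Uqcrfs1, the Rieske iron-sulphur protein, read 10.97 and 11.07 naive and 11.63, 11.69, 11.71 and 11.77 at day 3 in wild type, and 11.20, 11.09 and 11.20 against 11.81, 11.72, 11.72 and 11.77 in BATF-/-. It was higher in every day 3 array than in any naive array, with a rise of 0.68 ± 0.07 in wild type (adjusted p = 1.91e-06) and 0.59 ± 0.06 in BATF-/- (adjusted p = 1.98e-06). Cyc1, cytochrome c1, fell instead, from 10.56 ± 0.01 to 10.30 ± 0.07 in wild type (by 0.26 ± 0.09, adjusted p = 0.0276) and by 0.31 ± 0.08 in BATF-/- (adjusted p = 0.0046). Uqcrc2, a core protein, rose by 0.28 ± 0.08 in wild type (adjusted p = 0.0141) and differed by 0.14 ± 0.07 in BATF-/- (adjusted p = 0.141). Uqcrq (0.01 ± 0.07) and Uqcrc1 (0.00 ± 0.08) had the smallest differences in wild type.

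Cycs, cytochrome c, the mobile carrier between complexes III and IV, fell in both genotypes. Its values were 12.00 and 12.11 naive against 11.67, 11.51, 11.64 and 11.61 at day 3 in wild type, and 12.42, 12.20 and 11.94 against 11.55, 11.86, 11.89 and 11.83 in BATF-/-. The naive and day 3 arrays did not overlap in either genotype, and the fall was 0.45 ± 0.12 (adjusted p = 0.00862) and 0.40 ± 0.11 (adjusted p = 0.00732). Of its other probe sets above the background limit, 1 fell by 0.57 in wild type and 1 differed by -0.11 without passing (adjusted p = 0.453).

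Complex IV, cytochrome c oxidase, rose in 6 of its 10 ubiquitous subunits and fell in 2 in wild type, with a median of 0.24. In BATF-/- 5 rose and 2 fell, with a median of 0.21. Cox8a, a small membrane subunit, went from 11.54 ± 0.01 to 11.98 ± 0.06 in wild type (0.44 ± 0.06, adjusted p = 6.04e-05). Cox7a2, Cox5b, Cox6b1, Cox6a1 and Cox5a rose by 0.22 to 0.37. Cox4i1 (0.03 ± 0.06) and Cox6c (0.11 ± 0.06) did not pass.

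The falling members were Ndufa4 and Cox7c. Ndufa4, named as a complex I gene but a subunit of complex IV, read 11.86 and 11.93 naive and 11.31, 11.21, 11.31 and 11.18 at day 3 in wild type, a fall of 0.64 ± 0.07 (adjusted p = 3.31e-06). In BATF-/- it read 11.95, 11.80 and 11.86 naive and 11.37, 11.39, 11.42 and 11.41 at day 3, a fall of 0.47 ± 0.06 (adjusted p = 1.7e-05). Cox7c read 8.11 and 8.08 naive and 7.31, 7.21, 7.27 and 7.35 at day 3 in wild type, a fall of 0.81 ± 0.13 (adjusted p = 0.000133). In BATF-/- it read 7.46, 8.11 and 7.73 naive and 7.19, 7.13, 7.14 and 7.20 at day 3, a fall of 0.60 ± 0.11 (adjusted p = 0.000562), and its BATF-/- naive arrays spread over more than the other groups. The chosen probe set of Cox7c can also match other transcripts (suffix _s_at). It averaged 7.48, where the other ubiquitous subunits averaged 11.5 to 13.7. A dimmer second probe set did not pass in the fit of all probe sets (-0.41 in wild type, adjusted p = 0.202, and -0.51 in BATF-/-, adjusted p = 0.0697).

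Several subunits of complex IV have isoforms that other tissues use. Cox7a1, the heart and skeletal muscle form of subunit 7a, read 3.81 and 3.75 in wild-type and 3.76, 3.23 and 3.72 in BATF-/- naive arrays, all below the background limit. At day 3 it read 6.73, 6.59, 6.77 and 6.46 in wild type and 6.93, 6.91, 6.99 and 7.0 in BATF-/-, all above it. The difference in measured intensity was 2.86 ± 0.13 in wild type (7.25-fold, adjusted p = 1.97e-09) and 3.39 ± 0.11 in BATF-/- (10.5-fold, adjusted p = 9.13e-11). Set against the background limit the rise was at least 3.78-fold and at least 4.71-fold, and 1 probe set measured the gene. Cox7a2, the form found in most tissues, rose by 0.37 ± 0.08 and 0.42 ± 0.07 (adjusted p = 0.00116 and 0.000158). Cox7a2l, a relative of these forms, differed by -0.12 ± 0.08 in wild type and fell by 0.27 ± 0.07 in BATF-/- (adjusted p = 0.00488).

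Cox6a2, the muscle form of subunit 6a, read 5.95 and 6.03 naive and 6.46, 6.43, 6.41 and 6.47 at day 3 in wild type, a rise of 0.45 ± 0.10 (adjusted p = 0.00158). In BATF-/- it read 6.54, 6.19 and 6.25 naive and 6.74, 6.76, 6.75 and 6.53 at day 3, a rise of 0.37 ± 0.09 (adjusted p = 0.00273) in which the groups overlapped. Its ubiquitous partner Cox6a1 went from 13.54 ± 0.03 to 13.81 ± 0.01 in wild type (0.27 ± 0.06, adjusted p = 0.00146). Cox6b2, a testis form, was the noisiest member, and its naive to day 3 differences of 0.26 ± 0.33 and -0.40 ± 0.29 did not pass. Cox4i2 (-0.11 ± 0.08 in wild type), Cox8b (0.24 ± 0.12), Cox8c (0.03 ± 0.11) and Ndufa4l2 (0.12 ± 0.12) did not pass in either genotype, and Cox7b2 was below the background limit in all groups. A list of 6 heart and skeletal muscle markers was near the background, with a mean log2 intensity of 3.75 to 4.03 in naive and 3.98 to 4.18 in day 3 arrays, and 2 of the 6, Ckm and Acta1, were above the limit in all groups. Both rose in wild type, Ckm by 0.35 (adjusted p = 0.0199) and Acta1 by 0.34 (adjusted p = 0.037), and in BATF-/- Acta1 rose by 0.31 (adjusted p = 0.0312) while Ckm differed by 0.19 without passing. These differences are near those of Cox6a2, and their part in the result was not tested.

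The ATP synthase changed by part, as read from the chosen probe sets. In the F1 head and its central stalk 4 of 5 subunits rose in each genotype and 1 fell. Atp5d, the delta subunit, read 12.26 and 12.22 naive and 12.72, 12.80, 12.87 and 12.84 at day 3 in wild type, and 12.35, 12.25 and 12.40 against 13.03, 12.85, 12.87 and 12.93 in BATF-/-. No day 3 array overlapped with a naive one, and the rise was 0.57 ± 0.07 (adjusted p = 2.31e-05) and 0.59 ± 0.06 (adjusted p = 5.06e-06). Atp5a1, Atp5b and Atp5c1, the alpha, beta and gamma subunits, rose by 0.28 to 0.30 in wild type. Atp5e, the epsilon subunit, fell from 11.95 ± 0.01 to 11.55 ± 0.10 (by 0.40 ± 0.08, adjusted p = 0.000579) in wild type and by 0.31 ± 0.07 in BATF-/- (adjusted p = 0.0016).

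The c ring genes went different ways, although they make the same mature protein. Atp5g1 read 10.84 and 10.91 naive and 10.09, 10.06, 10.19 and 9.99 at day 3 in wild type, and 11.21, 10.67 and 10.86 against 10.36, 10.32, 10.34 and 10.36 in BATF-/-. Its day 3 arrays were all lower, with a fall of 0.79 ± 0.11 (adjusted p = 5.86e-05) and 0.57 ± 0.10 (adjusted p = 0.000337). Atp5g2 rose from 11.68 and 11.67 to 11.94, 11.99, 12.04 and 12.06 in wild type (0.34 ± 0.07, adjusted p = 0.000804) and by 0.28 ± 0.06 in BATF-/- (adjusted p = 0.00111). Atp5g3 read 12.60 and 12.63 naive and 12.82, 12.72, 12.76 and 12.74 at day 3 in wild type, a difference of 0.15 ± 0.07 that did not pass (adjusted p = 0.097), and rose by 0.20 ± 0.06 in BATF-/- (adjusted p = 0.0134). With the chosen probe sets, none of the 4 peripheral stalk subunits and none of the 5 small membrane subunits passed in wild type. Of these, 1 of the stalk and 0 of the membrane subunits had an unadjusted limma p below 0.05 there. In the fit of all probe sets, a dimmer one of Atp5pb, of the stalk, rose by 0.31 in wild type (adjusted p = 0.00304). A dimmer one of Atp5k, of the membrane part, rose by 0.21 (adjusted p = 0.0477). The other probe sets of these genes did not pass in wild type. In the stalk, Atp5j and Atp5o rose in BATF-/-, by 0.20 ± 0.05 and 0.23 ± 0.06 (adjusted p = 0.00846 and 0.00505). Atp5l, of the membrane part, differed by -0.01 ± 0.06 in wild type.

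**Figure D2:**
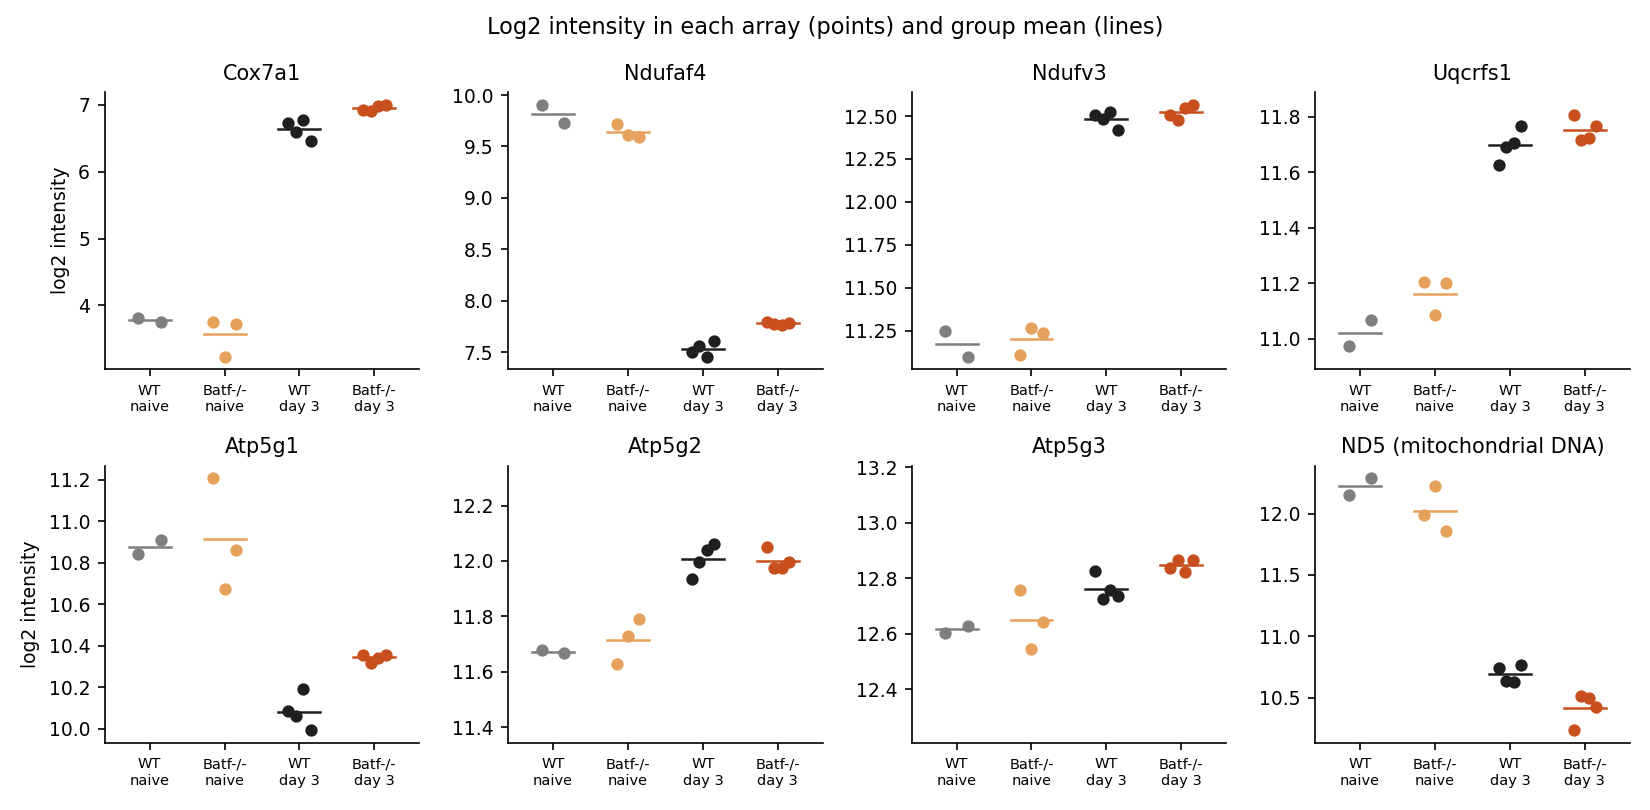
Log2 intensity in every array (points) and group means (lines) for 7 members and for ND5, a complex I subunit encoded by mitochondrial DNA; vertical scales differ between panels. Cox7a1, Ndufv3, Uqcrfs1 and Atp5g2 are higher at day 3 in both genotypes, Ndufaf4, Atp5g1 and ND5 are lower, and Atp5g3 differs by 0.15 in wild type and 0.20 in BATF-/-.

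Where a gene had several probe sets, they did not always run the same way. Of the 92 members 52 had more than 1, and probe sets that passed in opposite directions were seen for Atp5a1, Atp5g2, Cox5b, Ndufa12, Ndufab1, Ndufb8, Ndufs4 and Uqcrq. In Sdha, Ndufa3 and Ndufa10 a probe set passed with the opposite sign to the chosen one, which did not pass in that comparison: for Sdha in both genotypes, as given above, and in BATF-/- for Ndufa3 (0.29, adjusted p = 0.0187) and Ndufa10 (-0.31, adjusted p = 0.0141). For Atp5a1 the chosen probe set (mean log2 intensity 12.44) rose and another bright one (11.71) fell by 0.19 in wild type. For Uqcrq the chosen probe set did not pass, and a dimmer one rose by 0.61. In Ndufab1 and Ndufs4 the falling probe sets included ones below the background limit. The chosen probe sets of 18 members carry the suffix _s_at or _x_at, which marks probes that can also match other transcripts.

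Mitochondrially encoded subunits are represented by a single gene, ND5 of complex I, which is no member by the symbol rule. ND5 read 12.15 and 12.29 in wild-type and 11.99, 12.23 and 11.86 in BATF-/- naive arrays, and 10.74, 10.64, 10.63 and 10.76 in wild-type and 10.24, 10.52, 10.50 and 10.42 in BATF-/- day 3 arrays. Every day 3 array was lower than every naive array, and ND5 fell by 1.53 log2 units in wild type and fell by 1.61 in BATF-/- (adjusted p = 9.6e-08 and 1.6e-08). The nuclear subunits of its complex moved up at the median.

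Among other genes that serve the chain, falls outnumbered rises in wild type for the assembly factors and for the upkeep of mitochondrial DNA. The regulators moved both ways and did not fall at the median. Of 35 measured assembly factors outside the symbol rule, 4 rose and 17 fell in wild type (median -0.21) and 6 rose and 13 fell in BATF-/-. Ttc19, a complex III factor, fell by 1.37, Uqcc3, also of complex III, by 0.91, and Sco2, a copper carrier for complex IV, by 0.84 in wild type, while Nubpl, an iron-sulphur factor of complex I, rose by 0.81, and Cox17 and Surf1 of complex IV rose by 0.54 and 0.52. Of 18 genes that maintain or transcribe mitochondrial DNA, 4 rose and 11 fell in wild type (median -0.32) and 4 rose and 7 fell in BATF-/-. Polrmt, the mitochondrial RNA polymerase, fell by 1.16, Tfb2m, its initiation factor, by 0.99, and Polg, the replicative polymerase, by 0.72, and Tfam, which packages the DNA, fell by 0.19. Mgme1 and Mterf4 rose by 0.69 and 0.66. Of 14 regulators of mitochondrial biogenesis, 4 rose and 6 fell in wild type (median 0.01) and 3 rose and 4 fell in BATF-/- (median 0.04). In wild type the coactivator Pprc1 fell by 1.71 and Ppargc1b by 1.38, and Gabpb1, Ppard and Nrf1 rose by 1.39, 1.33 and 0.77. Ppargc1a, counted as a rise, and Perm1, counted as a fall, were below the background limit in all groups. Lyrm7, counted among the 17 falling assembly factors, was below it too, so the differences of these genes are not read. The wild-type counts of these lists stand beside the same 22.4% of all genes that rose and 23% that fell. Among genes above the background limit by their mean, these shares were 29% and 32.3%.

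**Figure D3:**
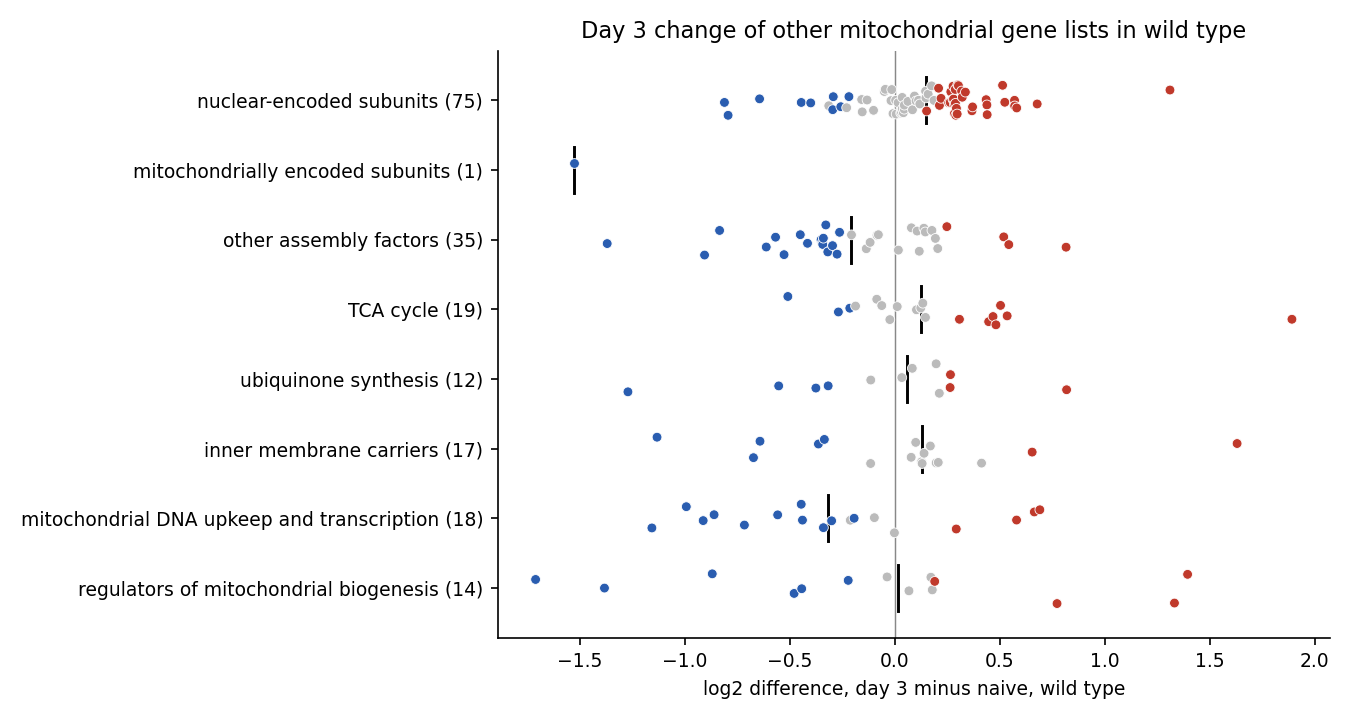
Difference in log2 intensity between day 3 and naive arrays in wild-type cells for the 75 nuclear-encoded subunits and for related gene lists (number of measured genes in brackets). Red and blue points passed the test as higher and lower, grey points did not pass, and black bars are medians. The subunits lie mainly right of 0, and the other assembly factors and the genes of mitochondrial DNA upkeep and transcription mainly left.

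The changes with stimulation were alike in direction in both genotypes. Of the 38 members that rose in wild type 36 also rose in BATF-/- (94.7% of the 38 and 75% of the 48), and of the 11 that fell 9 also fell (81.8% of the 11 and 90% of the 10). No member passed in opposite directions, and 30 passed in neither genotype. Over all genes 45.4% passed in wild type and 47% in BATF-/-, in either direction. Their overlap was not counted, so the shares above are not particular to the members as far as is known. Members that passed as higher in BATF-/- alone numbered 12, among them Ndufa8, Ndufb7, Ndufs5, Uqcr10, Atp5j and Atp5o, but this is no test of a difference between the genotypes. In that test, the difference between the day 3 changes, 0 of 92 members passed in limma, beside 0.649% of all genes. An unadjusted limma p below 0.05 was found for 6 members (6.52%, against 11.9% of all genes). Among the 11783 genes above the background limit 1653 had such a p. The smallest adjusted p among the members was that of Ndufaf4 (0.43 ± 0.09, adjusted p = 0.074). Its second probe set gave 0.20 in the fit of all probe sets (adjusted p = 0.52). The members next in order were Cox7a1 (0.53 ± 0.17, adjusted p = 0.219), Ndufs4 (0.25 ± 0.09), Cox4i2 (0.29 ± 0.11), Atp5j (0.19 ± 0.08) and Ndufb11 (0.17 ± 0.07).

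**Figure D4:**
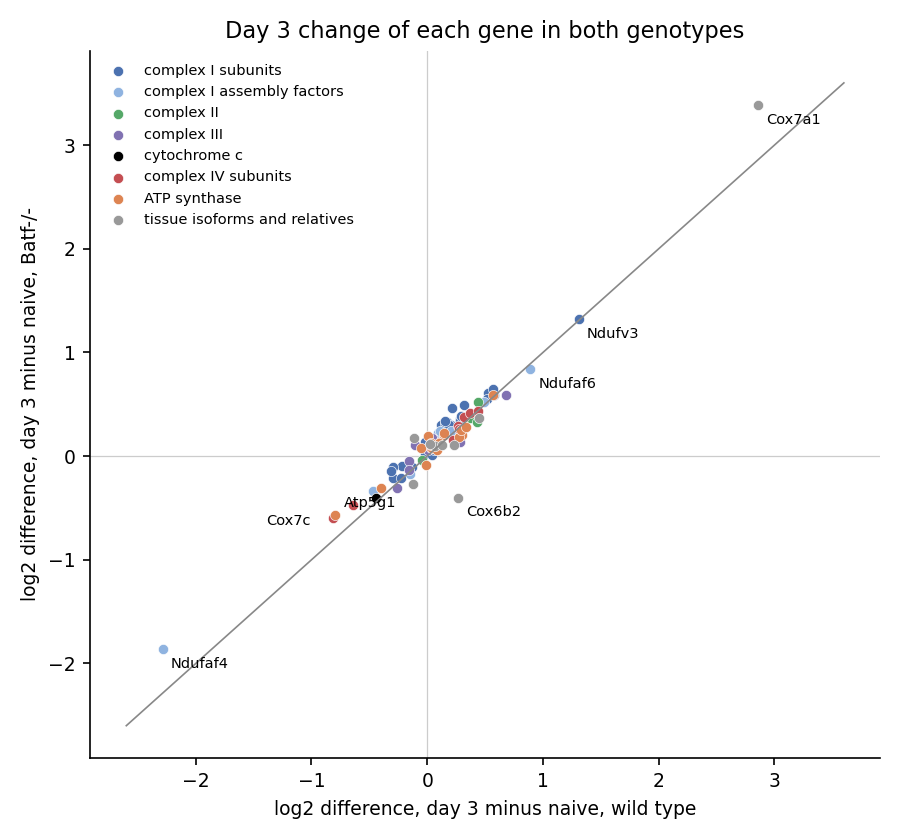
Difference in log2 intensity between day 3 and naive arrays in wild-type cells (horizontal) and in BATF-/- cells (vertical) for each of the 92 genes, coloured by complex, with the line of equal change. Most genes lie near the line, Ndufaf4 and Cox7a1 lie above it, and Cox6b2 lies below it. The axes share no arrays.

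At day 3, BATF-/- cells had slightly higher intensities than wild-type cells for most members, and no single member passed. Of the 92 members 0 passed in limma (1.37% of all genes did), and 84 differed by less than 0.2 log2 units. An unadjusted limma p below 0.05 was found for 18 members (19.6%, against 12.6% of all genes). Among the 11783 genes above the background limit 1844 had such a p, and 115 passed as higher and 120 as lower. The difference was positive for 77 members (83.7%, against 55.5% of all genes and 52.5% of genes above the background limit). Its median over the members was 0.06 (0.05 to 0.08 over the alternatives run), against 0.01 over all genes and 0.01 over genes above the limit. All 4 BATF-/- arrays were above all 4 wild-type arrays for 29 members (31.5%, against 7.44% of all genes), and below for 3 (3.26%, against 5.34%), namely Cox6b2, Cox7c and Sdhd. The 29 were 12 of 34 complex I subunits, 2 of 8 assembly factors, 1 of 4 in complex II, 3 of 9 in complex III, 4 of 10 in complex IV, 5 of 17 in the ATP synthase and 2 of 9 isoforms and relatives. Members share arrays and are not independent, so these counts are a description. The 6 monocyte and macrophage markers averaged 5.07 to 5.24 in the wild-type and 5.48 to 5.64 in the BATF-/- day 3 arrays, 3 of the 6 above the background limit in all of them, and their part in the difference was not tested.

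The mean log2 intensity of the 75 subunits shows the same in each array. It was 11.33, 11.33, 11.39 and 11.38 in the wild-type and 11.43, 11.42, 11.44 and 11.43 in the BATF-/- day 3 arrays. The lowest BATF-/- array (11.4192) was above the highest wild-type one (11.3905). This gap is smaller than the spread of the wild-type day 3 arrays, which ran from 11.3261 to 11.3905. Naive arrays gave 11.22 and 11.25 in wild type and 11.32, 11.19 and 11.24 in BATF-/-, which overlapped.

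Ndufaf4 had the smallest adjusted p at day 3, with a BATF-/- minus wild-type difference of 0.25 ± 0.06 log2 units (adjusted p = 0.0599). Its second probe set, also above the background limit, did not show this difference in the fit of all probe sets (-0.04, adjusted p = 0.885). Ndufaf8 (0.21 ± 0.06, adjusted p = 0.149), Ndufb3 (0.17 ± 0.05, adjusted p = 0.157), Cox6a2 (0.25 ± 0.08, adjusted p = 0.168), Cox7a1 (0.32 ± 0.11, adjusted p = 0.195) and Uqcrq (0.18 ± 0.06, adjusted p = 0.196) followed. Ndufb3, an accessory subunit of complex I, read 10.94, 10.96, 11.02 and 11.03 in wild type and 11.15, 11.17, 11.18 and 11.15 in BATF-/- at day 3. Its groups did not overlap, although the difference is small. Cox6b2 differed most in the other direction, with 6.84, 6.96, 6.90 and 7.15 in wild type and 6.46, 6.23, 6.01 and 6.18 in BATF-/- (-0.74 ± 0.27, adjusted p = 0.24). The wild-type values overlapped with none of the BATF-/- ones at day 3, but the naive arrays of this gene ran from 6.05 to 7.57. Without BATF-/- naive replicate 1, whose neutrophil markers were high, 3 members passed as higher at day 3 (Ndufaf4, Atp5g1 and Cox6a2) and Cox6b2 as lower. That array enters this comparison only through the shared estimate of the spread. Without it 3.11% of all genes passed at day 3, against 1.37% in the main fit.

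**Figure D5:**
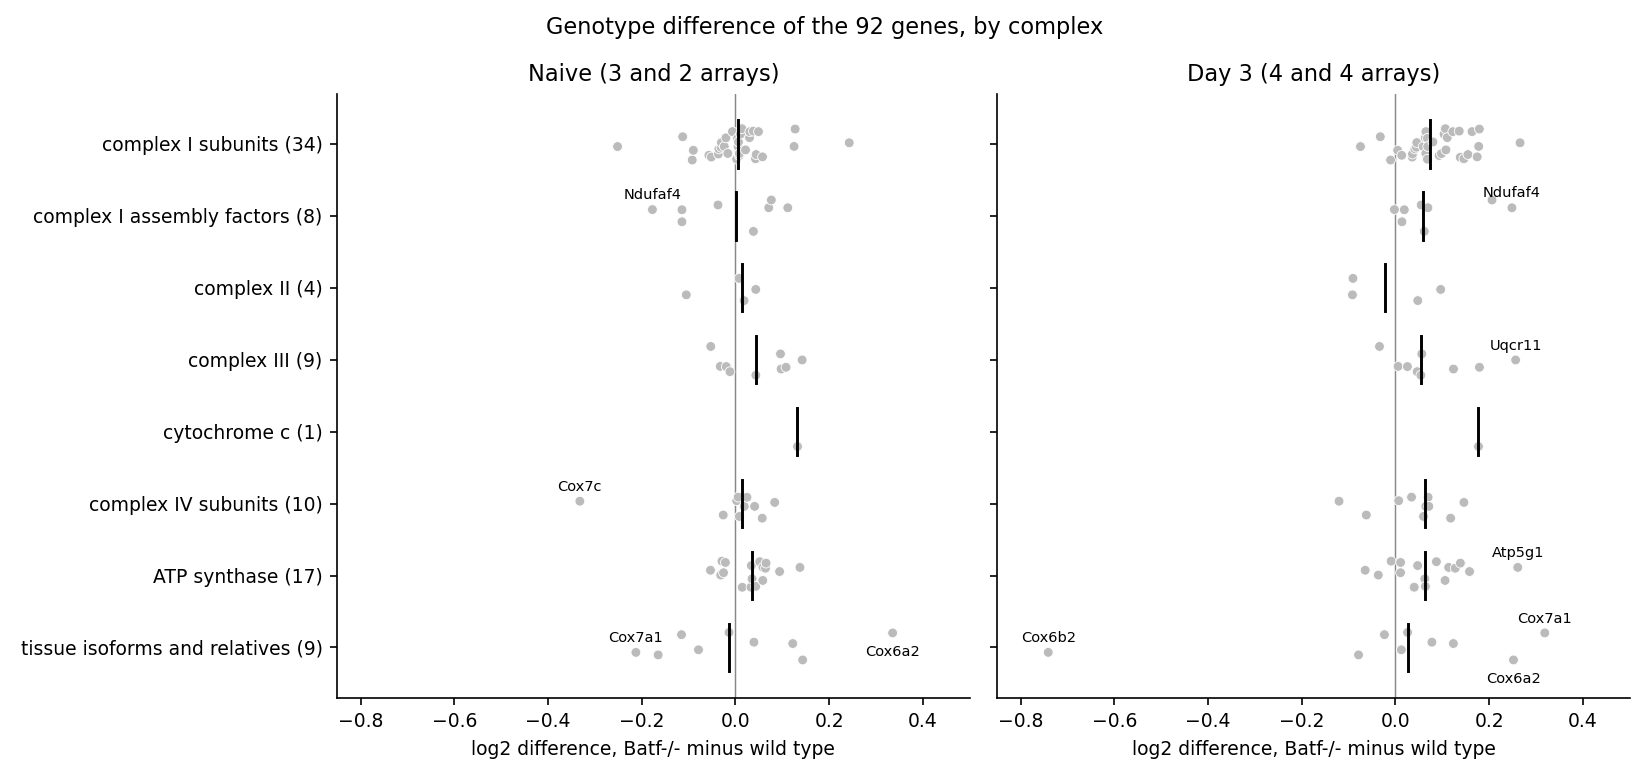
Difference in log2 intensity between BATF-/- and wild-type arrays for each of the 92 genes (points), by complex, in naive cells (left, 3 and 2 arrays) and at day 3 (right, 4 and 4 arrays); black bars are medians of each complex. All points are grey because none passed the test, and at day 3 77 of the 92 lie right of 0.

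In naive cells the genotypes were not separated. Of the 92 members 0 passed in limma, against 1.08% of all genes, and 3 had an unadjusted p below 0.05 (3.26%, against 13.6% of all genes). Among the 11783 genes above the background limit 1805 had such a p. The median difference of the members was 0.01, and -0.02 without BATF-/- naive replicate 1. That array had the highest mean over the 92 members among the naive arrays, at 10.58 against 10.44 to 10.51. Markers of other cells differed between these groups as well: NK cell markers averaged 6.51 to 6.70 in wild-type and 7.36 to 8.22 in BATF-/- naive arrays, and B cell markers 6.00 to 6.41 and 6.73 to 7.12. The members with the smallest p were Cox6a2 (0.34 ± 0.10, adjusted p = 0.165), Cox7c (-0.33 ± 0.13), Ndufaf4 (-0.18 ± 0.07), Atp5l (0.14 ± 0.07), Uqcrfs1 (0.14 ± 0.07) and Cox4i2 (-0.16 ± 0.09). Cox7c passed as lower in BATF-/- (-0.51, adjusted p = 0.0113) when BATF-/- naive replicate 2, the array in which it was as high as in wild type, was left out. In that fit 3.42% of all genes passed between the naive groups.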

How the data were processed

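Total RNA of 13 samples was measured on 3′ expression arrays, and the authors deposited probe set intensity values on a linear scale, made with RMA per the submitters' processing notes (its version is not given in the sources used here). RMA normalises arrays to each other, which removes any change shared by all transcripts. The intensities, which reach 27465, were converted to log2 here and not normalised again. Of 45101 probe sets 34958 are assigned to 1 gene in the platform table, and the one with the highest mean stood for each of 18194 genes. A linear model of the 4 group means was fitted across the 18194 genes with limma 3.58.1 in R 4.3.3 (9 residual and 3.702 prior degrees of freedom). Tests were two-sided, with Benjamini-Hochberg adjustment over all genes and a threshold of 0.05. Errors of differences are standard errors of the fit, those of group levels SDs. On simulated arrays of 18194 genes for the day 3 genotype comparison, 75% of 0.5 and 100% of 1 log2 changes were recovered. Of the calls made there, 5.41% were false. Changes below 0.5 log2 units were not simulated, while 84 members differed by less than 0.2 between the genotypes at day 3. The recovery rates therefore do not tell how often differences of that size would pass.

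The members and gene lists were chosen with earlier results of these data known. Members were named by rule: the 3 largest and 2 smallest wild-type changes in each complex, the 6 smallest p-values where fewer passed a genotype contrast, members that moved against their complex, isoform families, and genes with disagreeing probe sets. The marker lists of plasma, dendritic, CD4 T, erythroid and platelet cells were measured too. Their mean log2 intensity was 7.42 to 8.43, 5.40 to 5.77, 4.67 to 4.87, 5.13 to 6.25 and 7.04 to 7.90 in naive and 6.30 to 6.66, 4.29 to 4.55, 4.99 to 5.21, 3.83 to 4.04 and 5.05 to 5.28 in day 3 arrays. Figures were drawn with matplotlib 3.10.9.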

Additional observations from a re-analysis of the deposited data

Results flagged for a closer look

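In groups of 4 arrays, a single array of a member that lies far from the others was looked for (a gap test at the 95% level, which marks about 1 in 20 groups by chance), and 2 of 128 groups were marked. Cox6a1 in wild-type day 3 replicate 3 read 13.827, where the nearest other array read 13.8016 and the farthest 13.8. Cox6a2 in BATF-/- day 3 replicate 4 read 6.52935, where the other 3 arrays lay between 6.7384 and 6.75534.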

How the results depend on the processing

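Up to 23 alternatives were run for each result. Counts of members higher or lower with stimulation stayed within 1.5 times of those reported in all of them, except that 7 fell in wild type without wild-type naive replicate 2 (7 to 13 over the arrays left out in turn). The number higher was 30 to 42 in wild type and 41 to 56 in BATF-/-. The wild-type median ran from 0.0983 (without wild-type naive replicate 1) to 0.173 (without wild-type naive replicate 2) and the BATF-/- median from 0.152 to 0.231 (without BATF-/- naive replicate 1) over the arrays left out in turn. The genotype comparisons depended more on the settings. At day 3, 1 member was higher after a second quantile normalisation, 1 without dim probe sets and 1 with an intensity trend in eBayes. With array weights 8 were higher and 1 lower (Cox6b2), and with the day 3 arrays alone 3 were higher and 1 lower. More genes passed in general in these settings: 1.46%, 3.18%, 1.9%, 7.18% and 3.79% of all genes in that order, against 1.37% in the main fit. Leaving out arrays gave 0 to 3 higher and 0 to 1 lower at day 3, and 0 to 1 lower in naive cells. For the difference between the changes, 1 member (Ndufaf4) was higher without dim probe sets, 1 with the trend and 1 with array weights. The same member was higher without BATF-/- naive replicate 1. Over all genes 1.44%, 0.863%, 2.98% and 1.49% passed in these settings, in that order. Ndufaf4 passed at day 3 in 7 of 22 alternatives (adjusted p = 0.00537 to 0.447). When a gene's probe sets were averaged, the direction turned in wild type for Ndufa12 (-0.19), Ndufab1 (-0.0754), Ndufb8 (-0.0570) and Ndufs4 (-0.17), and in BATF-/- for Atp5a1 (-0.0193), Ndufab1 (-0.0181) and Ndufs4 (-0.11), genes whose dimmer probe sets move against the brightest. The wild-type rise of Ndufb11 was lost in 13 of 22 alternatives and that of Ndufab1 in 10. The deviations of same-numbered arrays from their group means correlated at r = -0.258 to 0.0495 over 16 pairs. Deviations within a group must cancel out, so in groups this small these values cannot settle whether the numbers pair the samples. With the replicate number as a block, 31 members rose and 10 fell in wild type and 46 and 10 in BATF-/-. Members near the background (Cox7b2, Ndufb4, and Cox7a1 in naive cells) limit what can be read from their differences.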

Other observations

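Genes that feed or surround the chain were measured as well. Over all genes, 22.4% rose and 23% fell in wild type and 23.8% rose and 23.2% fell in BATF-/-, and the counts below stand beside these shares. Of 19 genes of the TCA cycle and pyruvate entry, 7 rose and 3 fell in wild type and 8 rose and 3 fell in BATF-/-. Pcx, pyruvate carboxylase, rose by 1.89 and 1.28, Idh3b, a subunit of isocitrate dehydrogenase, by 0.53 and 0.60, and Cs, citrate synthase, by 0.50 and 0.37, while Ogdh of the oxoglutarate dehydrogenase fell by 0.51 and 0.49. Of 17 inner membrane carriers, 2 rose and 5 fell in wild type and 5 rose and 4 fell in BATF-/-. The citrate carrier Slc25a1 rose by 1.63 and 1.56, the ADP/ATP carrier Slc25a4 by 0.65 and 0.57, and Slc25a32 fell by 1.13 and 0.99. Of 12 genes of ubiquinone synthesis, 3 rose and 4 fell in wild type and 4 rose and 3 fell in BATF-/-. In wild type Coq7 rose by 0.82 and Coq10b fell by 1.27.

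Genotype differences outside the chain's subunits passed for few of these genes. Tefm, a mitochondrial transcription elongation factor, was higher in BATF-/- at day 3 by 0.52 (adjusted p = 0.0027) and Tmem126b, a complex I assembly factor, was lower (-0.29, adjusted p = 0.029). Myc was lower in naive BATF-/- cells (-0.45, adjusted p = 0.0304), and its day 3 difference of 0.25 did not pass (adjusted p = 0.106). Myc fell by 0.87 at day 3 in wild type and differed by -0.17 in BATF-/-, and the difference between these changes passed (0.70, adjusted p = 0.012).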
